A study of Mus musculus with 4 samples.

Results

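The genes described here are 46 members of NF-kappaB signalling, with the cytokines, chemokines and adhesion molecules it is known to regulate and the receptor-interacting protein (RIP) kinases. They were taken as a named gene list that was chosen with earlier results of these data known. Of the 46, 41 had a probe set, out of 18193 genes with one in all, and Nfkb1, Chuk, Il1rl1, Ripk1 and Ripk2 were not analysed here. They were compared between 2 GIC arrays (glioma-initiating cell-like, the tumorigenic subline) and 2 non-GIC arrays (the nontumorigenic subline). Each subline came from neural stem cells of the brain of p53-/- C57BL/6 mouse embryos at day 14.5. The telencephalic cells were grown as floating spheres, stably electroporated with pCMS-EGFP-HRasL61 and pBabe-neo, selected with neomycin and sorted for GFP, so GIC and non-GIC cells share the p53 loss and the activated HRas. Each group is 1 subline, so subline and tumorigenicity cannot be told apart. The labels name no separate cultures for the replicates, so the spread behind each p-value is that between these arrays and may be technical only.

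NF-kappaB is a family of dimeric transcription factors that rest in the cytoplasm, bound to IkB proteins. Signals from TNF, IL-1 and Toll-like receptors pass through adaptors, ubiquitin ligases and RIP kinases to the IkB kinase, which marks IkB for destruction and frees the dimer to enter the nucleus. Among its target genes are its own inhibitors, which switch the response off, and cytokines, chemokines and adhesion molecules. Neural stem cells and glial cells use the same pathway, and it has been studied widely in glioma.

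Levels are deposited log2 signals per probe set, and fold changes are GIC minus non-GIC. Where a gene had several probe sets, the one with the highest mean over the 4 arrays was used. Testing needed a signal over 5.97, which is the 40th percentile of the whole table, on 2 or more arrays. Of the 41 genes with a probe set, 35 were tested, and 32 of these lay above that level on all 4 arrays. Ripk4 and Traf1 passed through the GIC arrays only. For a gene that passed through 1 group, the difference is given as a bound, with the filter level in place of each signal under it, since no detection calls were used. A bulk signal cannot tell fewer expressing cells from less RNA per cell. Array medians ran from 6.58 to 6.63, and with 4 arrays every value has limited precision. Of the neural stem and progenitor markers, Vim, Sox2 and Nes were above the filter level on all 4 arrays. Prom1 and Olig2 were below that level on every array. Fabp7 was at 5.23 on both GIC arrays and at 6.58 and 6.89 on the non-GIC arrays. Nes had 9.17 and 8.97 in GIC, against 11.45 and 10.81 in non-GIC, and Sox2 10.20 and 10.59, against 11.15 and 11.44. Of the 9 tested markers of this list, 7 had a log2 fold change under 0 and 2 above 0. The 7 include Vim (-0.005) and Msi1 (-0.04), which hardly differed, and the 2 were Slc1a3 (0.01) and Notch1 (0.10).

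Of the 35 tested genes, 3 passed the threshold of adjusted p under 0.05 in limma, 2 higher in GIC (Ripk4 and Cd14) and 1 lower (Tnfaip3). This is 8.57%, against 1.92% of all 13366 tested genes in either direction, 1.23% higher and 0.688% lower. The list was chosen with earlier results of these data known, so the shares in this paragraph describe it and carry no test. Genes that enter through their high group alone are set to differ, so without them the count was 2 of 33 (6.06%), against 1.3% of 13107 genes. By role, the NF-kappaB subunits (4 tested), the IkB kinase (2), the adaptors (4) and the cytokines (7) held 0 genes past the threshold in limma. Among them, 1 adaptor and 2 cytokines had an unadjusted p under 0.05. The chemokines (4) and the adhesion molecules with Ptgs2 (2) also held 0, with 1 gene in each at an unadjusted p under 0.05. At 1.92% over all tested genes, a count of 0 in groups this small is near the background. At an unadjusted p under 0.05 there were 10 of the 35 genes (28.6%), 5 higher and 5 lower, against 17.9% of all tested genes. At least 2-fold apart were 6 genes (17.1%), against 6.63% of all tested genes. The 10 include Ripk4 and Traf1, and the 6 include Ripk4. Both genes entered through the GIC arrays only, so these shares are set in part by the filter. The shares over all tested genes beside them keep such genes too. The groups did not overlap in 18 genes (51.4%), which is close to the 50.4% of all tested genes. The median log2 fold change was -0.01 over the 35 tested genes and over all 41, and -0.01 over all tested genes. In 22 of the 35, the gap between the arrays of 1 group was larger than the fold change. The median gap was 0.17 between the GIC arrays and 0.22 between the non-GIC arrays, near the 0.20 and 0.18 over all genes.

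**Figure D1:**
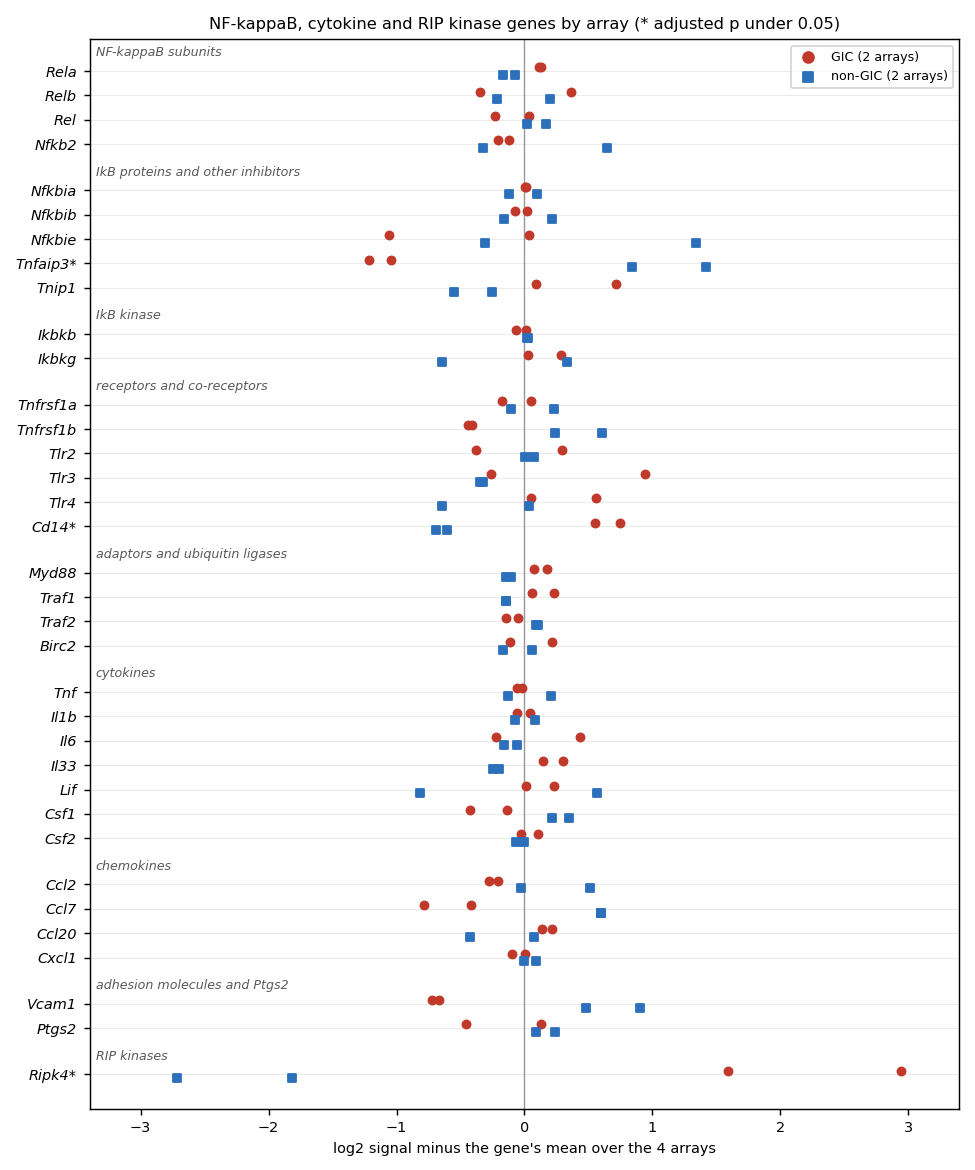
Signal of the 35 tested genes on each array, as log2 signal minus the gene's own mean over the 4 arrays (horizontal axis), ordered by role; red circles are the 2 GIC arrays and blue squares the 2 non-GIC arrays, and an asterisk marks an adjusted p under 0.05. Ripk4 stands apart from the other genes. The adaptor genes have their 4 arrays close together, while Nfkb2 and Relb among the subunits and Lif and Csf1 among the cytokines are spread more widely.

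The inhibitors were the role group with the lowest single fold change. Tnfaip3 encodes a ubiquitin-editing enzyme that ends NF-kappaB signalling from the TNF and Toll-like receptors, and is itself a classical NF-kappaB target. Nfkbia encodes the main IkB protein and Tnip1 a ubiquitin-binding partner of the Tnfaip3 protein; both are also known targets. The promoters of these 3 inhibitors are shown because each holds a kappaB match, and of the 3 only Tnfaip3 passed the threshold. The window of Nfkbie also holds 1 match and is not shown. Each runs from 250 bases before to 50 bases after the RefSeq start site (build GRCm38.p6). Capitals mark matches to the kappaB consensus on either strand, and overlapping matches run together.
Tnfaip3, chr10:19015361-19015660, minus strand: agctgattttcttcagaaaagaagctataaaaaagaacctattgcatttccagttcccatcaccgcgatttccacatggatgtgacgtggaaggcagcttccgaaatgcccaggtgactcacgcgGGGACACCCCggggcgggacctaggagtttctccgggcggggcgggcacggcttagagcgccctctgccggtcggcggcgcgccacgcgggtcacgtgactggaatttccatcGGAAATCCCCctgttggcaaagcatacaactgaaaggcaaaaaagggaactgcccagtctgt
Nfkbia, chr12:55492598-55492897, minus strand: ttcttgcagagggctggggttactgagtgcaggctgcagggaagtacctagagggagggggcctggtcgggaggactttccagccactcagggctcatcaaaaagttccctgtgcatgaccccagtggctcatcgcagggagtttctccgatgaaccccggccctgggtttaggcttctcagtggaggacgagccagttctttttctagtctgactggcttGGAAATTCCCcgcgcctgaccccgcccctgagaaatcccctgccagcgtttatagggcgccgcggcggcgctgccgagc
Tnip1, chr11:54962891-54963190, minus strand: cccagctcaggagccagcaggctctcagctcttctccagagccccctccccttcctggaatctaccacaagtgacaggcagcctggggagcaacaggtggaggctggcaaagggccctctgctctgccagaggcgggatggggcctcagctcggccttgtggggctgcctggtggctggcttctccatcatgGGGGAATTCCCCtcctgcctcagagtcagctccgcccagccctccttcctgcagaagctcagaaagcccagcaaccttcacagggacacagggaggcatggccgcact
Tnfaip3 held 2 matches, with first bases at -125 and -12 from the start site, Nfkbia 1 at -29, and Tnip1 3 overlapping ones from -58 to -56. A match is a description of the letters and not evidence of binding.

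Tnfaip3 had signals of 8.15 and 8.32 on the GIC arrays, against 10.78 and 10.20 in non-GIC. Both GIC arrays were well below both non-GIC arrays. The mean was 8.23 ± 0.12 for GIC against 10.49 ± 0.41 for non-GIC (SD, n = 2 each). Tnfaip3 fell by 2.26 on the log2 scale (SE 0.25, limma adjusted p = 0.0345), which is 4.79-fold. Its second probe set had 7.31 and 7.37 in GIC, against 9.49 and 8.94 in non-GIC, a log2 fold change of -1.88. With any 1 array left out, the log2 fold change of Tnfaip3 lay between -2.55 and -1.97 and the call was lost, with limma adjusted p from 0.0686 (without non-GIC replicate 2) to 0.116 (without GIC replicate 1).

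The other inhibitors did not pass. Nfkbia had 12.06 and 12.06 in GIC, against 12.15 and 11.93 in non-GIC, and the groups overlapped. Its log2 fold change was 0.02 (SE 0.15), and its 4 other probe sets gave -0.10 to -0.29, so no direction is given. Tnip1 had 10.90 and 10.28 in GIC, against 9.64 and 9.94 in non-GIC, with no overlap. The log2 fold change was 0.81 (SE 0.27, limma adjusted p = 0.238). Nfkbie, a further IkB protein, had 7.99 and 6.90 in GIC, against 9.30 and 7.65 in non-GIC. Its groups overlapped, since GIC replicate 1 lay above non-GIC replicate 2. The log2 fold change of Nfkbie was -1.03 (SE 0.66, adjusted p = 0.492), and it moved to -0.20 when non-GIC replicate 1 was left out and to -1.85 when the other was. Nfkbib had a log2 fold change of -0.06.

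No subunit or IkB kinase gene passed. The 4 tested subunits had log2 fold changes from -0.32 to 0.24. Rela, the main activating subunit, had 10.91 and 10.89 in GIC, against 10.61 and 10.70 in non-GIC (log2 fold change 0.24, SE 0.15, adjusted p = 0.489). Rel had a value of -0.19, Relb of 0.02 and Nfkb2, the precursor of the noncanonical pathway, of -0.32. Nfkb2 had 9.53 and 9.44 in GIC, against 10.29 and 9.32 in non-GIC, so it moved to 0.16 without non-GIC replicate 1 and to -0.81 without non-GIC replicate 2. Relb turned sign when each array was centred on its median and ran from -0.34 to 0.38 with 1 array left out, so no direction is given for either gene. For the catalytic kinase Ikbkb the 4 arrays lay between 10.01 and 10.10. Ikbkg, the regulatory subunit, had 9.67 and 9.42 in GIC, against 8.75 and 9.72 in non-GIC. On all 6 Ikbkg probe sets non-GIC replicate 1 was the lowest of the 4 arrays, and the groups overlapped. The log2 fold change of Ikbkg was 0.31, which became -0.17 without that array and 0.80 without non-GIC replicate 2.

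Of the 6 receptors and co-receptors, Cd14 passed. Cd14 presents bacterial lipopolysaccharide to Toll-like receptors and is best known on monocytes and microglia. It had 8.76 and 8.96 in GIC, against 7.52 and 7.60 in non-GIC. Both GIC arrays were above both non-GIC arrays by more than the spread within either group. Cd14 rose by 1.30 on the log2 scale (SE 0.15, limma adjusted p = 0.037), or 2.45-fold. The mean was 8.86 ± 0.14 for GIC against 7.56 ± 0.06 for non-GIC (SD, n = 2 each). Without any 1 array, the log2 fold change lay between 1.20 and 1.39 and the call was lost, with limma adjusted p from 0.0893 (without GIC replicate 2) to 0.204 (without non-GIC replicate 1).

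Cd14 is often read as a leukocyte marker, so the leukocyte list is given beside it. Of 14 microglia and leukocyte markers, 7 were tested and 0 passed over all genes in limma, with 1 (Cd68, higher in GIC) at an unadjusted p under 0.05. The mean signal of the 14 was 5.96 on each GIC array and 5.97 and 5.82 on the non-GIC arrays. Of the list, 6 were below the filter level on every array. The pan-leukocyte gene Ptprc had 4.30 and 4.39 in GIC, against 4.52 and 4.03 in non-GIC, and Itgam and P2ry12 were below the filter level on every array too. The 2 markers with the highest mean signal were Csf1r (7.26 on both GIC arrays, against 7.55 and 7.57 in non-GIC) and Laptm5 (7.26 and 7.40 in GIC, against 7.48 and 7.26 in non-GIC). Cd68 and Lyz2, both chosen after their values were seen, ran the same way as Cd14 with no overlap. The lysosomal gene Cd68 had 7.03 and 6.77 in GIC, against 6.20 and 6.54 in non-GIC (log2 fold change 0.53, limma adjusted p = 0.231). The lysozyme gene Lyz2 had 6.78 and 6.96 in GIC, against 6.63 and 6.33 in non-GIC (0.39, limma adjusted p = 0.299). The other 5 tested leukocyte markers had log2 fold changes under 0. The part of such cells in the Cd14 value was not tested.

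The other receptors did not pass. Tnfrsf1b, the TNF receptor without a death domain, had 8.37 and 8.34 in GIC, against 9.01 and 9.38 in non-GIC, with no overlap (log2 fold change -0.85, SE 0.19, adjusted p = 0.13). Its second probe set gave -0.47. Tnfrsf1a, the death domain receptor, had a log2 fold change of -0.13 (SE 0.20). Tlr3, a sensor of double-stranded RNA, had 9.13 and 7.93 in GIC, against 7.86 and 7.84 in non-GIC. GIC replicate 1 alone stood apart, and without it the log2 fold change of Tlr3 was 0.08. Tlr4 had 9.92 and 9.41 in GIC, against 8.71 and 9.39 in non-GIC (0.61, SE 0.32), and Tlr2 had a log2 fold change of -0.08.

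**Figure D2:**
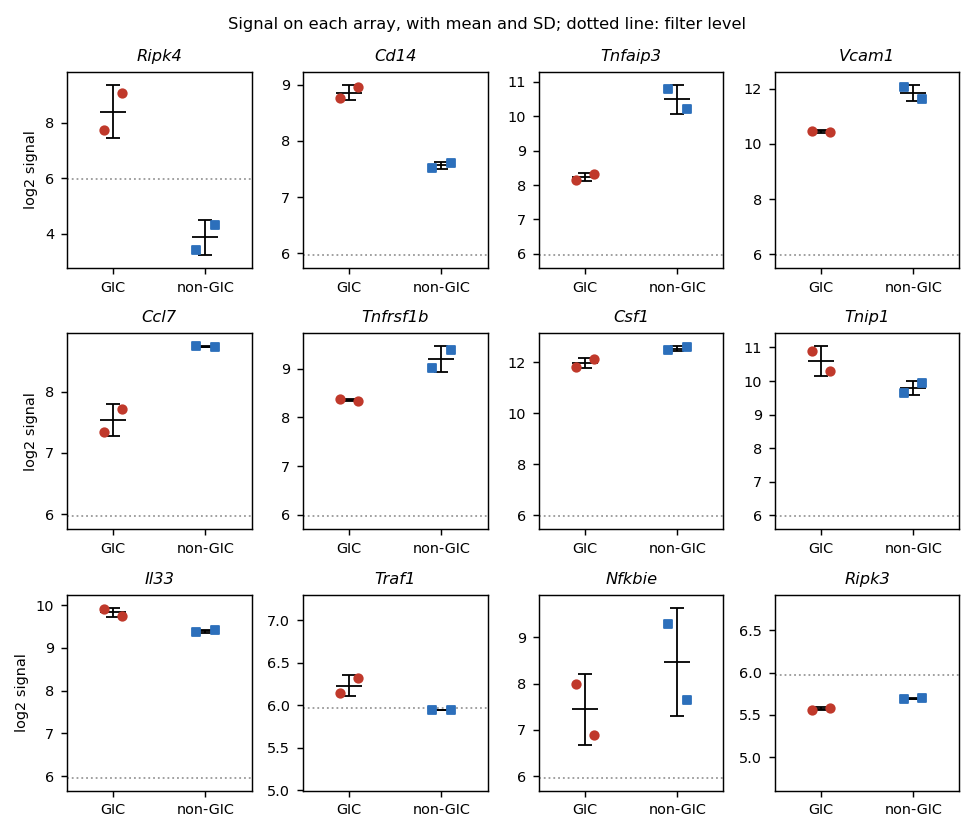
Log2 signal (vertical axis) on each GIC array (red circles) and non-GIC array (blue squares) for the 10 genes with an unadjusted p under 0.05, with Nfkbie and Ripk3; bars give the mean and SD (n = 2) and the dotted line the filter level of 5.97. Vertical ranges differ between genes. Ripk4 lies above the filter level on the GIC arrays only, and the arrays of Ripk3 all lie below it.

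No adaptor or ubiquitin ligase passed. Myd88, the adaptor of the IL-1 and Toll-like receptors, had a log2 fold change of 0.25, Traf2 of -0.19 and Birc2 of 0.11. Traf1 had 6.14 and 6.32 in GIC, against the same value of 5.94 on both non-GIC arrays, which lie below the filter level. Traf1 was at least 1.20-fold higher in GIC by its bound, and did not pass (limma adjusted p = 0.274). Its second probe set had only GIC replicate 2 above the filter level and gave a log2 difference of 0.73, and averaging the probe sets gave 0.51, against 0.29 for the one used. Birc3, the neighbour of Birc2 on the chromosome, was below the filter level on every array.

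No cytokine passed. Csf1, the growth factor of macrophages and microglia, had 11.81 and 12.10 in GIC, against 12.46 and 12.58 in non-GIC. The groups did not overlap, at a log2 fold change of -0.57 (SE 0.17, adjusted p = 0.197), and its 3 other probe sets gave -0.70 to -0.78. Il33, an alarmin held in the nucleus, had 9.91 and 9.75 in GIC, against 9.36 and 9.41 in non-GIC (0.44, SE 0.16, adjusted p = 0.27). The remaining tested cytokines Tnf, Il1b, Il6, Lif and Csf2 had log2 fold changes from -0.08 (Tnf) to 0.24 (Lif), and the groups overlapped in all 5. Lif, which maintains stem cell self-renewal in several systems, had 7.53 and 7.31 in GIC, against 7.86 and 6.48 in non-GIC. Il11 was not tested.

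The chemokines Ccl2 and Ccl7 attract monocytes and are direct neighbours on the chromosome. Ccl7 had 7.35 and 7.72 in GIC, against 8.73 and 8.73 in non-GIC. There was no overlap, and the log2 fold change was -1.20 (SE 0.18, limma adjusted p = 0.0612). Ccl2 had 10.19 and 10.26 in GIC, against 10.98 and 10.44 in non-GIC (-0.48, SE 0.23, adjusted p = 0.372). Both chemokines were lower on each GIC array than on each non-GIC array, and neither passed. Cxcl1 had a value of -0.09 and Ccl20 of 0.36, while Cxcl2 and Cxcl5 were below the filter level on every array. The Cxcl1 probe set used can bind several transcripts, and another of that kind gave -0.40. The Cxcl1 probe set specific to 1 transcript was below the filter level on every array.

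The endothelial and neural stem cell adhesion molecule Vcam1, which binds integrins and is known to anchor adult neural stem cells in their niche, had 10.48 and 10.43 in GIC, against 12.05 and 11.63 in non-GIC. The arrays of each group lay close together and far from the other group. The log2 fold change was -1.39 (SE 0.20, limma adjusted p = 0.0559), so Vcam1 missed the threshold, and its 2 other probe sets gave -1.45 and -1.39. Of 11 neural stem and progenitor markers 9 were tested. Nes and Fabp7, named because they passed the threshold, were lower in GIC, Fabp7 having passed the filter through the non-GIC arrays only. The other tested markers of the list did not pass. The brightest, Vim, had 14.61 and 14.59 in GIC, against 14.50 and 14.71 in non-GIC. The mean signal of the list was 8.39 and 8.32 on the GIC arrays, against 8.70 and 8.99 in non-GIC. Of the endothelial markers 3 of 8 were tested and 0 passed in limma, with 0 at an unadjusted p under 0.05. Their mean signal was 5.66 and 5.59 in GIC, against 5.65 and 5.66 in non-GIC. The 2 brightest were Kdr (7.46 and 7.42 in GIC, against 7.58 and 7.43) and Esam (6.76 and 6.82, against 6.71 and 6.86). Cldn5 was above the filter level on all 4 arrays too, while 5 of the list, Pecam1 and Cdh5 among them, were below it on every array. Of 9 mural cell and fibroblast markers 6 were tested and 0 passed, with 0 at an unadjusted p under 0.05, and the mean signal was 9.33 and 8.46 in GIC, against 8.75 and 8.69 in non-GIC. The brightest mural and fibroblast marker, Col1a1, had 13.59 and 10.70 in GIC, against 13.84 and 14.57 in non-GIC (log2 fold change -2.06). Of the 6 tested mural and fibroblast markers 4 had a positive log2 fold change, among them Col1a2 (1.26), Col3a1 (0.77) and Dcn (0.52). The part of these cell types in the Vcam1 value was not tested. Ptgs2, the inducible cyclooxygenase, had 12.26 and 12.84 in GIC, against 12.95 and 12.80 in non-GIC (-0.33, SE 0.23). Icam1 had 4.36 and 4.53 in GIC, against 4.50 and 4.41 in non-GIC, below the filter level throughout.

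Among the RIP kinases, Ripk4 was higher in GIC and entered the test through its GIC arrays only. It is known for its role in epidermal differentiation and can activate NF-kappaB when overexpressed. Ripk4 had 7.73 and 9.08 on the GIC arrays, against 3.42 and 4.32 in non-GIC. The GIC arrays lay above the filter level and the non-GIC arrays far below it. The mean was 8.41 ± 0.95 for GIC against 3.87 ± 0.64 for non-GIC (SD, n = 2 each). With the filter level in place of the non-GIC signals, Ripk4 was at least 5.42-fold higher in GIC (limma adjusted p = 0.0368 on the signals as deposited). The bound was at least 8.65-fold without GIC replicate 1 and at least 3.39-fold without GIC replicate 2. The call was lost when non-GIC replicate 1 (adjusted p = 0.169) or non-GIC replicate 2 (adjusted p = 0.111) was left out.

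The Ripk4 probe set that was used can bind several transcripts. The second one, specific to 1 transcript, had 5.57 and 6.26 in GIC, against 4.55 and 4.08 in non-GIC. It gave the same order of the groups, but only GIC replicate 2 was above the filter level. Its smaller log2 difference of 1.60 uses signals mostly under that level as deposited, so its size is not settled. The bound of 5.42-fold rests on the probe set that can bind several transcripts. Ripk3, which drives necroptosis through Mlkl, had 5.56 and 5.58 in GIC, against 5.69 and 5.70 in non-GIC, below the filter level throughout, and was not tested.

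**Figure D3:**
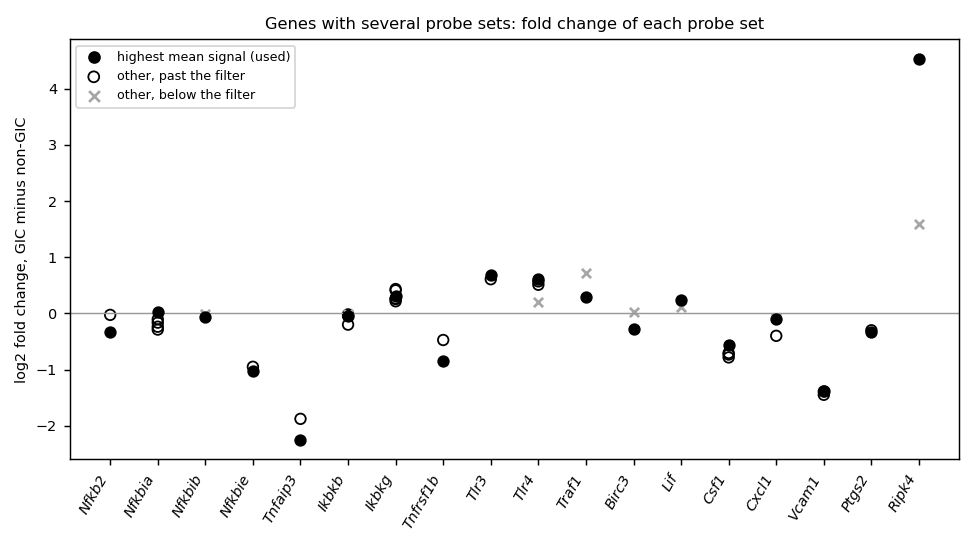
Log2 fold change, GIC minus non-GIC (vertical axis), of every probe set of the 18 genes that have several; filled points are the probe set with the highest mean signal, open points other probe sets past the filter and grey crosses those below it. The probe sets of Tnfaip3, Vcam1, Csf1 and Ikbkg lie on 1 side of 0. The second Ripk4 probe set is higher in GIC by less, on signals mostly under the filter level.

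The choice of probe set altered few signs. The 18 genes with several probe sets had 34 others, of which 29 gave the same sign as the one used and 5 the opposite. Of the 26 others past the filter, 4 were opposite, and these were the 4 of Nfkbia. Replicates of a subline differed in some pathway genes. Of the tested genes, 9 had a gap of at least 0.5 between the GIC arrays, with replicate 1 higher in 7 and lower in 2 (Ptgs2 and Ripk4). Between the non-GIC arrays 8 had such a gap, with replicate 1 higher in 5 (Nfkb2, Nfkbie, Tnfaip3, Lif and Ccl2) and lower in 3 (Ikbkg, Tlr4 and Ripk4). The gap of 0.5 was chosen after the values were seen, and no share over all genes is given for it. The median gaps were near those of all genes, so these counts are not particular to the list.

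A wider list of 140 other pathway genes, also chosen with earlier results of these data known, held 127 with a probe set and 105 tested. Of these, 3 were higher and 2 lower in GIC, or 4.76%, against 1.92% of all tested genes (1.23% higher and 0.688% lower), with a median log2 fold change of 0.04. Without Tnfsf9 and Nlrc5, which passed the filter through 1 group only, 3 of 103 were called (2.91%), against 1.3% over all genes. None of the 34 tested adaptors, ubiquitin machinery genes and kinases passed (0 in limma, with 7 at an unadjusted p under 0.05), and none of the 17 ligands and receptors of the IL-1, IL-6 and Toll-like families passed (0, with 2 at an unadjusted p under 0.05). At the share over all genes, counts of 0 in lists of this length are near the background. Those 2 genes were Osmr and Lifr, receptor chains for oncostatin M and Lif, which were named after their values were seen. Osmr had 11.33 and 10.99 in GIC, against 6.01 and 9.41 in non-GIC (log2 fold change 3.45, SE 1.12, limma adjusted p = 0.228). Lifr had 9.49 and 9.22 in GIC, against 6.91 and 7.90 in non-GIC (1.95, SE 0.36, limma adjusted p = 0.0931). The groups overlapped in neither gene, and the non-GIC arrays of Osmr lay far apart. The decoy receptor Tnfrsf11b, which binds the osteoclast factor Tnfsf11, had 10.61 and 9.93 in GIC, against 7.48 and 6.65 in non-GIC. It rose by 3.20 on the log2 scale (SE 0.38, adjusted p = 0.0368), and its second probe set gave 2.15. The membrane-bound chemokine Cx3cl1, known as a neuronal signal to microglia, had 10.33 and 9.61 in GIC, against 12.31 and 12.14 in non-GIC. It fell by 2.25 (SE 0.28, adjusted p = 0.0431), and its 3 other probe sets were lower as well.

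The other genes past the threshold in the wider list were nearer to the filter level or less settled. The costimulatory ligand Tnfsf9 had 5.23 and 5.52 in GIC, against 6.49 and 6.44 in non-GIC. It passed the filter through the non-GIC arrays only and was at least 1.41-fold lower in GIC by its bound (limma adjusted p = 0.0376, and 0.068 without a trend). Nlrc5, a regulator of MHC class I genes that has also been described as an NF-kappaB inhibitor, had 6.60 and 6.08 in GIC, against 4.58 and 4.91 in non-GIC. It passed the filter through the GIC arrays only and was at least 1.29-fold higher in GIC by its bound (limma adjusted p = 0.0483). The Nlrc5 call was lost with no filter (0.0543), quantile normalization (0.0513), no trend (0.0704) and robust eBayes (0.0507). The proteoglycan Sdc4 had 12.34 and 12.06 in GIC, against 10.20 and 10.47 in non-GIC (log2 fold change 1.86, adjusted p = 0.0319). A second Sdc4 probe set, specific to 1 transcript, gave -0.12, so the Sdc4 increase rests on 1 probe set. All 5 calls in the wider list, Tnfrsf11b and Cx3cl1 included, were lost when either non-GIC array was left out (limma adjusted p from 0.0946 to 0.221). With GIC replicate 1 left out only Cx3cl1 kept its call, and with GIC replicate 2 left out Tnfrsf11b and Tnfsf9 lost theirs (adjusted p = 0.0558 and 0.0622). Among the cell death partners of the RIP kinases, 6 tested genes held 0 past the threshold in limma and 1 at an unadjusted p under 0.05. Mlkl itself had 5.08 and 4.94 in GIC, against 6.47 and 5.95 in non-GIC, and was not tested.

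**Figure D4:**
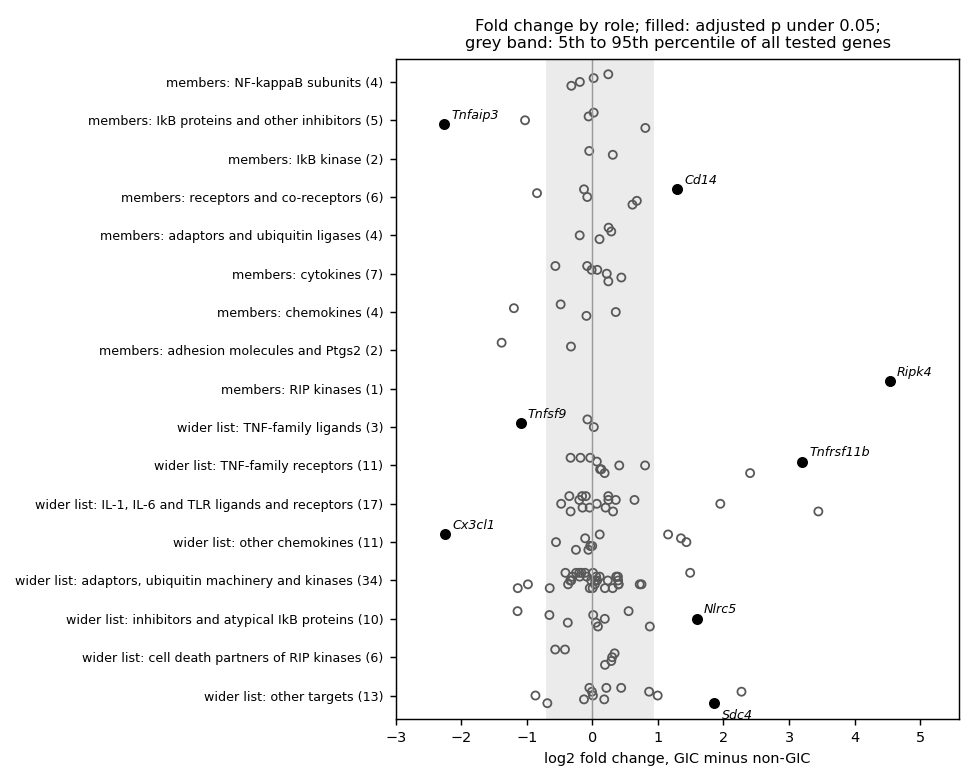
Log2 fold change, GIC minus non-GIC (horizontal axis), of each tested gene by role, with the number tested in brackets; filled points passed adjusted p under 0.05, and the grey band spans the 5th to 95th percentile of all tested genes, -0.70 to 0.92. The points of Ripk4, Traf1, Tnfsf9 and Nlrc5 use signals below the filter level in 1 group as deposited, and are not bounds. Ripk4, Cd14 and Tnfaip3 lie outside the band, and so do Vcam1, Ccl7, Nfkbie and Tnfrsf1b, which did not pass. The subunits, the IkB kinase, the adaptors and the cytokines of the main list lie inside it.

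Promoter windows were in the RefSeq table for 32 of the 41 genes. Ccl2, Ccl7, Cd14, Cxcl5, Ikbkb, Relb, Ripk4, Tlr4 and Vcam1 had no entry. The kappaB consensus, searched on both strands, was found in 14 of the 32 genes (43.8%), against 9.55% of all 27025 genes with a window. By window, 16 of the 41 windows of these genes and 8.46% of all 32851 windows held it. A narrower form, GGGANNTTCC, whose matches are all also consensus matches, was found in 7 of the 32 genes (21.9%), namely Csf1, Cxcl1, Cxcl2, Il6, Nfkb2, Nfkbia and Tlr3, against 1.63% of all genes. The list is made of genes known for this pathway, and their windows had a median GC content of 58.0%, against 52.7% in all windows, so the shares describe the list and carry no test.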

How the data were processed

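Gene expression was measured on 4 arrays, from 5 µg of total RNA labelled with biotin by the Affymetrix One-Cycle procedure, per the labels. The authors' deposited table holds 1 log2 signal for each of 45101 probe sets and array. The log base follows from the range of 2.75 to 15.12, and the near-equal quantiles show that arrays were already normalized. How background, summarisation and scaling were done is not given in the sources used here, and no detection calls were used. No array pair held identical values (0 pairs).

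Probe sets were named through the platform annotation, with symbols updated by Entrez identifier to the RefSeq table of GRCm38.p6 (34741 of the 34945 probe sets with 1 symbol). The 932 probe sets with several symbols and those unnamed here were left out. A model with group as its single term was fitted to all 13366 tested genes with limma 3.58.1 (R 4.3.3; lmFit, then eBayes with trend), two-sided. P-values were adjusted over all of them by Benjamini-Hochberg, with 0.05 as the threshold. There were 2 residual and 2.72 prior degrees of freedom. An exact permutation test of 1 gene cannot go below p = 0.33 with 2 arrays per group. Each array was left out in turn with genes and probe sets kept, and a lone array is then assumed to vary like the other group.

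Members and lists were chosen with earlier results of these data known. The rule for values in full took the members past the threshold, with unadjusted p under 0.05, or at least 2-fold apart without overlap, and the RIP kinases. Of the wider list it took those past the threshold, and of the marker lists those with the highest mean signal. Motifs were searched in Python 3.11.15 and figures drawn with matplotlib 3.10.9.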

Additional observations from a re-analysis of the deposited data

How the results depend on the processing

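Over 13 other settings, Ripk4, Cd14 and Tnfaip3 kept their direction wherever they were tested. They kept their calls under quantile normalization, median centring, no filter, eBayes without a trend or robust, a filter at the 60th percentile and averaging of each gene's probe sets. With only probe sets specific to 1 transcript, Ripk4 was not tested, and Cd14 and Tnfaip3 kept their calls. With the replicate block, 29 genes over all, 1 of the 35 described here (Ripk4) and 0 of the wider list passed. The labels name nothing that same-numbered arrays share, so the numbers were not taken to pair the arrays. Deviations from the group means correlated at -0.32 between same-numbered arrays. With 2 arrays per group, differently numbered arrays then have the same correlation with the opposite sign, so this value cannot decide on pairing. A crossed replicate block, added after seeing the data, called 685 genes over all, 5 of the 35 and 11 of the wider list. Leaving out 1 array at a time gave 12 to 188 genes over all, 0 to 1 of the 35, and 0 to 4 of the wider list. The count in the wider list was 3 at a 60th percentile filter and 3 without a trend. Sdc4 had a log2 fold change of -0.12 with only probe sets specific to 1 transcript. Among the 35, the sign changed in at most 6 genes (without non-GIC replicate 1), and in 0 of those at least 2-fold apart. Signals under the filter level in 1 group leave only bounds for Ripk4, Traf1, Tnfsf9 and Nlrc5.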
